A study of Mus musculus with 4 samples.

Results

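Translation initiation factors bring the ribosome to the start codon of a messenger RNA, and translation elongation factors carry it along the coding sequence. Their genes were taken by symbol from the count table: genes named Eif1 to Eif6, Eef1 or Eef2, each with any ending, apart from the eIF2 kinases (Eif2ak), pseudogenes whose symbol holds "-ps", and the sex-linked Eif2s3x, Eif2s3y and Eif1ax. This rule read no measured value, but it was set with earlier results of these data known. It gave 65 of the 55401 genes in the table. Of these, 56 had enough counts to be tested and 9 did not.

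The cells were mouse P14 CD8+ T cells from the spleen, which carry a transgenic T cell receptor for an epitope of lymphocytic choriomeningitis virus (LCMV) and were studied after infection with the Armstrong strain. One group carried an empty control vector (2 libraries) and the other a Hic1 overexpression vector (2 libraries). Hic1 is a transcriptional repressor with zinc fingers. The sample labels place the cells at day 32 after infection and the series text at day 7. Strain, age and sex of the mice, pooling of animals, the promoter of the vector and the origin of the replicates were not stated in the labels, so the p-values measure the spread between these samples. Replicates numbered 1 held Xist counts of 1885 and 3590, and those numbered 2 held 0 and 3, while the Y-linked Eif2s3y was at 0 in the former and at 396 and 951 counts in the latter, in the order empty vector and Hic1 vector.

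Libraries were made by Smart-seq2 from polyadenylated RNA of about 1000 resorted cells and held 3941364 to 8839317 counts. The Hic1 vector libraries were the deeper ones. Hic1 itself had 3 and 5 counts with the empty vector and 314 and 161 with the Hic1 vector (log2 fold change 4.58, SE 0.59, edgeR adjusted p = 0.00706). All 6 CD8 T cell markers (Cd3d, Cd3e, Cd3g, Cd8a, Cd8b1 and Trac) were detected in every library, Cd4 had at most 5 counts, and both platelet markers were at 0. Summed levels in CPM, counts scaled to a common library size of 1e6, of the other marker lists were 3.997 to 17.7 (empty vector) and 15.6 to 41.4 (Hic1 vector) for 4 B cell genes, 29.4 to 44.2 and 58.7 to 70.9 for 2 NK genes, 43.4 to 62.2 over all libraries for 5 myeloid genes, and 0.684 to 2.25 for 4 erythroid genes. Their part in the results below was not tested. Since each library is RNA from many cells, fewer cells expressing a gene and less of its RNA per cell cannot be told apart.

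In eukaryotes, eIF2 carries the initiator methionyl-tRNA to the small ribosomal subunit, and eIF2B recharges eIF2 with GTP. The eIF4F complex binds the cap of the messenger RNA and unwinds its leader, and the large eIF3 complex bridges the messenger RNA and the small subunit. During elongation, eEF1A delivers aminoacyl-tRNAs and eEF2 moves the ribosome on by a codon. In T cells, activation is accompanied by a large increase in protein synthesis, part of it driven by mTOR, which acts on eIF4E through the 4E-binding proteins and on messenger RNAs that begin with a pyrimidine tract.

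Among the 56 tested translation factor genes, Eif3f alone passed the test, and it was lower with the Hic1 vector. None was called higher, and 55 were not called (edgeR's quasi-likelihood test, Benjamini-Hochberg adjusted p below 0.05 over all 11676 tested genes). Across all tested genes 1.82% were called, 1.10% lower and 0.719% higher, so the share of 1.79% among the translation factors lay at the level of the whole table. At an unadjusted p below 0.05, 10 of the 56 genes were higher and 6 lower, against 9.41% and 9.70% of all tested genes (19.1% together). Most of the fold changes were small: 48 of 56 (85.7%) lay within 0.5 of 0 on the log2 scale, against 70.7% of all tested genes. The median log2 fold change was 0.10, beside 0.0087 for all tested genes, and 34 of 56 (60.7%) were above 0, beside 50.9%. With library sizes as the only scaling, 31 of 56 were above 0. In 23 of the 56 genes (41.1%) the lower Hic1 vector library exceeded the higher empty vector library, and in 10 (17.9%) the reverse held. The same was seen for 26.5% and 24.9% of all tested genes, 51.4% together.

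**Figure D1:**
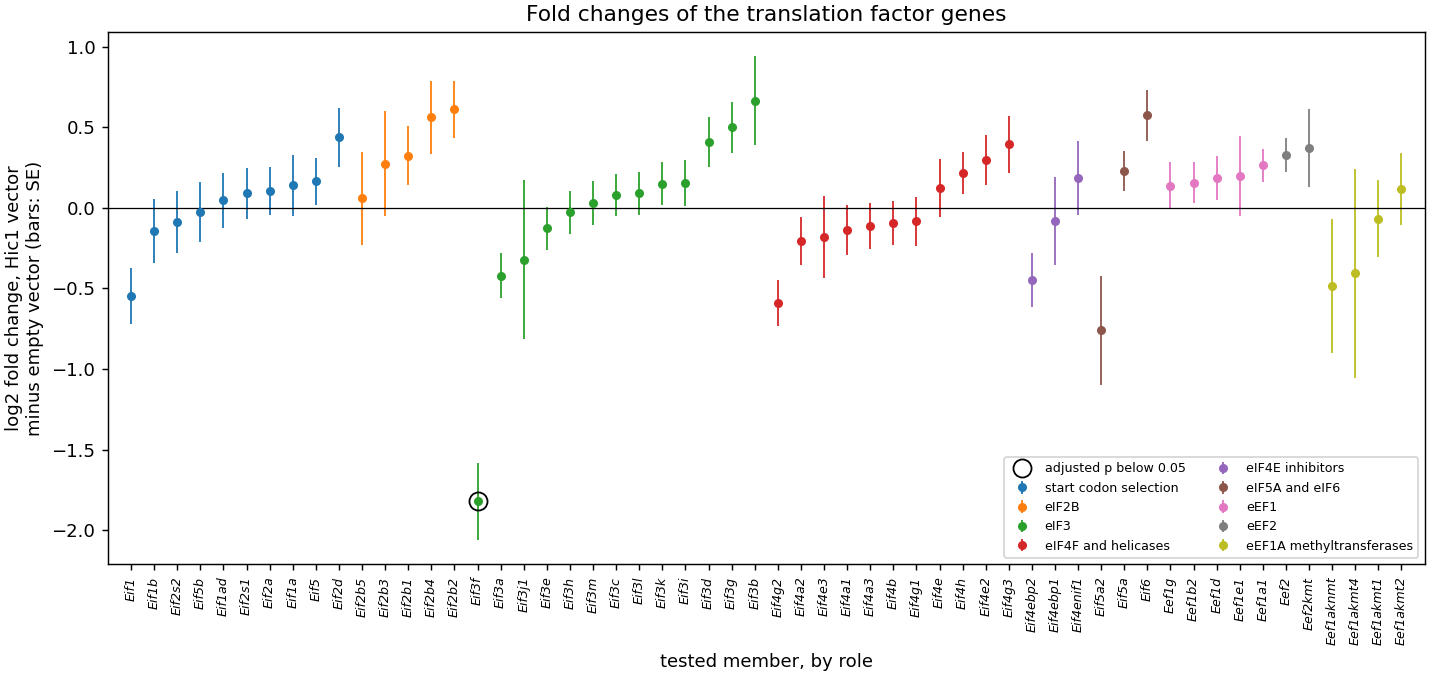
Log2 fold change (Hic1 vector minus empty vector) of the 56 tested translation factor genes, ordered by role and then by value; bars are the standard error and the open ring marks an adjusted p below 0.05. Eif3f stands at -1.82, and the other 55 genes lie between -0.76 (Eif5a2) and 0.66 (Eif3b) and carry no ring.

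The eIF3 complex gave the only called gene. Eif3f, a subunit of its MPN-domain core, had 3043 and 2428 counts in empty vector replicates 1 and 2, and 1697 and 1246 in the deeper Hic1 vector replicates 1 and 2. Scaled to library size this was 739 and 607 CPM with the empty vector and 239 and 142 CPM with the Hic1 vector. Both Hic1 vector libraries were thus far below both empty vector libraries. The group means were 673 ± 93.4 CPM and 190 ± 68.5 CPM (SD, n = 2 each), a 3.53-fold lower level (log2 fold change -1.82, SE 0.24, edgeR adjusted p = 0.0201). The log2 difference was -1.63 between the replicates numbered 1 and -2.09 between those numbered 2. By p-value Eif3f stood at rank 40 of the 11676 tested genes, and at rank 67 from the lowest fold change. The call was lost when empty vector replicate 1, the library with the highest level, was left out (log2 fold change -1.67, edgeR adjusted p = 0.113). With libraries thinned to the same total count the log2 fold change was -1.84 (edgeR adjusted p = 0.0126).

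Eif3f lies on the plus strand of chromosome 7, at chr7:108934417-108942951 in mm10 (GENCODE M21), beside a cluster of olfactory receptor genes that lies on its lower-coordinate side, with Nlrp10 in between and Tub next on the other side. None of the 39 other genes of the table within 500 kb of it had enough counts to be tested, so no neighbour could be compared with it. Its exons overlap no other annotated gene, and no other transcript shared a stretch of at least 100 bases at 95% identity with it. Its upstream sequence is shown because Eif3f is the called gene of the group. These are the 250 bases before the RefSeq start (GRCm38.p6, chr7:108934165-108934414, plus strand), with capitals marking matches to short promoter motifs.
Eif3f upstream: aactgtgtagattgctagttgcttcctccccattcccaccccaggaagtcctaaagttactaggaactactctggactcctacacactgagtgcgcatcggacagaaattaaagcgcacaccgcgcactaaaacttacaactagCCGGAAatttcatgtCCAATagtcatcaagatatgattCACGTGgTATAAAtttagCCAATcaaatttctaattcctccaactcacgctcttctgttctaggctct
Counted from the start, the matches were CCGGAA (an ETS core) at -106, CCAAT at -91 and -50, CACGTG (an E-box) at -68 and TATAAA at -61. On either strand these letters occur in 12.0%, 33.8%, 6.02% and 12.4% of all upstream windows of this length. GGGCA, a short form of the sequence known to be bound by Hic1, has 0 matches on either strand in the 300 bases around the Eif3f start. It was found in 35 of 62 windows of the translation factor genes (56.5%) and in 53.5% of all 32851 windows. These matches describe letters only.

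Among the eIF3 subunits, Eif3f changed its place. Per kilobase of exon (RPKM, CPM divided by exon length), its level was 255 and 210 with the empty vector and 82.6 and 49.1 with the Hic1 vector. The median of the other 12 tested subunit genes was 62.3 and 57.7 RPKM with the empty vector and 61.5 and 65.4 RPKM with the Hic1 vector. Eif3f was therefore 4.10 and 3.63 times that median in the empty vector libraries and 1.34 and 0.751 times in the Hic1 vector libraries. It ranked 2 of 14 subunit genes in both empty vector libraries, and 6 and 9 of 14 in the Hic1 vector libraries. Eif3h, another MPN-domain subunit, had the highest level per length of the complex in both groups, at 310 and 304 RPKM.

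The other 12 tested eIF3 genes did not pass the test, 8 of them above 0 (7 with library sizes as the only scaling, where Eif3m was at -0.047) and with a median log2 fold change of 0.084. Their summed level, with the untested Eif3j2, was 2856 and 2740 CPM with the empty vector and 2747 and 2967 CPM with the Hic1 vector, so the groups overlapped. Eif3a, the largest subunit and a scaffold of the complex, was at 326 and 283 CPM against 232 and 223 CPM (log2 fold change -0.42, SE 0.14, edgeR adjusted p = 0.135). Eif3g, an RNA-binding subunit, was at 93.9 and 79.2 CPM against 118 and 127 CPM (0.50, SE 0.16, edgeR adjusted p = 0.122). For both genes the groups did not overlap, in opposite directions. Eif3d, a subunit that can bind the cap, was at 114 and 115 CPM against 140 and 165 CPM (0.41, SE 0.15, edgeR adjusted p = 0.178). Eif3b, a scaffold subunit with a propeller fold, was low at 16.7 and 23.7 CPM against 27.7 and 36.7 CPM (0.66, SE 0.28, edgeR adjusted p = 0.21). The exons of Eif3d overlap 2151 bases of the antisense gene Gm17638, and the use of strand in counting was not stated, so its reads cannot be assigned with certainty. The same holds for Eif5b, with 1643 bases of overlap with Rev1, and for Eif3j1, with 1107 bases of overlap with Spg11. These 3 genes have at least 1000 bases of such overlap, and 16 genes have some. Shorter overlaps include Eef2kmt with Alg1 (472 bases), Eif1ad with Banf1 (428) and Eif2b4 with Snx17 (204). Over all libraries Banf1 had 3953 counts against 1987 for Eif1ad, and Snx17 3365 against 1311 for Eif2b4. Eef1akmt4 overlaps Gm49333 by 495 bases on the same strand.

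The 7 subunits Eif3c, Eif3e, Eif3h, Eif3i, Eif3k, Eif3l and Eif3m lay between -0.13 and 0.16 on the log2 scale. Eif3c, Eif3e, Eif3k, Eif3l and Eif3m belong to the same core as Eif3f and Eif3h, and Eif3i sits with Eif3b and Eif3g. Eif3h was at 509 and 489 CPM against 443 and 536 CPM, and Eif3m at 239 and 233 CPM against 247 and 235 CPM. Their groups overlapped. Eif3j1 and Eif3j2 encode the loosely bound subunit and share 2379 bases at 99.4% identity, so reads may have been split between them or dropped. They had few counts, with 9.22 and 4.50 CPM against 6.34 and 4.56 CPM for Eif3j1, and 5, 5, 5 and 2 counts for the untested Eif3j2 (here and below, 4 counts in a row are empty vector 1 and 2, then Hic1 vector 1 and 2).

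**Figure D2:**
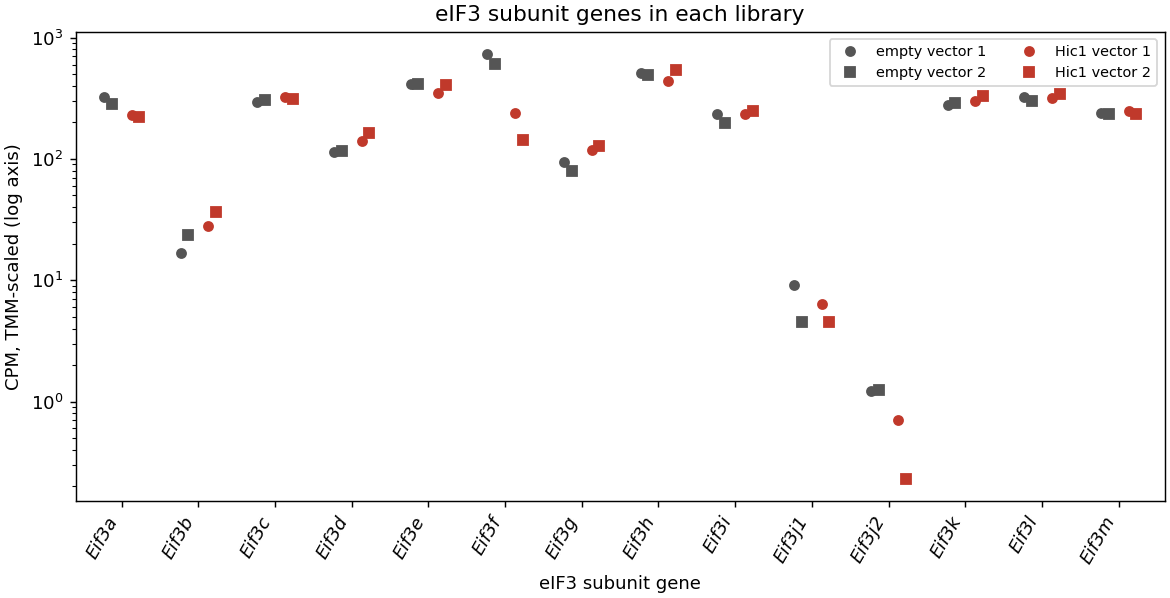
Level of the 14 eIF3 subunit genes in each library, in TMM-scaled CPM on a log axis; grey points are empty vector and red points Hic1 vector libraries, circles replicate 1 and squares replicate 2. The Eif3f points fall from 739 and 607 CPM to 239 and 142 CPM, while the points of Eif3c and Eif3m stay close together, and Eif3j1 and Eif3j2 sit lowest.

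The 10 genes of start codon selection and initiator tRNA delivery gave no call, with 6 above 0 and a median log2 fold change of 0.069. Eif1, the gatekeeper of start codon choice, was at 359 and 249 CPM with the empty vector and 208 and 208 CPM with the Hic1 vector. The groups did not overlap, but the empty vector libraries differed from each other by more than the lower of them differed from the Hic1 vector (log2 fold change -0.55, SE 0.17, edgeR adjusted p = 0.122). Eif1 is read with caution, since 13 other genes, with 576 counts in all against its own 5776, share a near-identical stretch with it. It was at -0.26 without empty vector replicate 1 and at -0.80 without replicate 2, where it was called (edgeR adjusted p = 0.0303). Its paralog Eif1b was at 50.0 and 63.2 CPM against 49.4 and 53.0 CPM.

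Eif2d, which can load tRNA without eIF2, was at 54.4 and 70.2 CPM against 83.3 and 85.7 CPM (0.44, SE 0.18, edgeR adjusted p = 0.215). Eif5, which makes eIF2 hydrolyse its GTP, was at 172 and 195 CPM against 197 and 215 CPM (0.17, SE 0.15, edgeR adjusted p = 0.58). Eif1a, the partner of Eif1 in scanning, was at 56.3 and 49.2 CPM against 60.7 and 55.7 CPM (0.14, SE 0.19, edgeR adjusted p = 0.744). The core eIF2 subunits overlapped between the groups. Eif2s1, the alpha subunit that stress kinases phosphorylate, was at 119 and 150 CPM against 144 and 141 CPM. Eif2s2, the beta subunit, was at 68.9 and 59.0 CPM against 54.9 and 65.4 CPM. Eif1ad, Eif2a and Eif5b, the factor that joins the subunits, lay between -0.026 and 0.11 on the log2 scale.

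All 5 subunit genes of eIF2B had a log2 fold change above 0, but Eif2b5 was below 0 in 6 of 16 alternatives, among them library sizes as the only scaling (-0.021), and Eif2b3 in 1. None passed the test, and their median was 0.33. Their summed level was 175 and 198 CPM with the empty vector and 260 and 248 CPM with the Hic1 vector, with no overlap. Eif2b2, the beta subunit, was at 51.9 and 61.0 CPM against 90.5 and 82.5 CPM (0.61, SE 0.18, edgeR adjusted p = 0.0945). Eif2b4, the delta subunit, was at 33.5 and 49.0 CPM against 55.5 and 66.4 CPM (0.56, SE 0.23, edgeR adjusted p = 0.205). Eif2b1, the alpha subunit, was at 49.0 and 55.2 CPM against 66.7 and 64.0 CPM (0.33, SE 0.18, edgeR adjusted p = 0.368). Eif2b3 and the catalytic subunit Eif2b5 overlapped between the groups, at 0.28 and 0.059 on the log2 scale. The groups thus did not overlap for 3 of the 5 genes, a state that 26.5% of all tested genes shared in this direction.

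Of the 14 genes of the cap-binding complex eIF4F and its helicases, 11 were tested, none was called and 4 were above 0, with a median log2 fold change of -0.095. Eif4g2, a relative of the eIF4G scaffold that does not bind eIF4E, was at 700 and 547 CPM with the empty vector and 394 and 434 CPM with the Hic1 vector. Its groups did not overlap, and it came nearest to the threshold among the genes not called (log2 fold change -0.59, SE 0.15, edgeR adjusted p = 0.0622). It was called in 5 of 16 alternative analyses. Over all 16, called or not, its log2 fold change ran from -0.77 to -0.40. The scaffold gene Eif4g1 was at 106 and 109 CPM against 104 and 99.1 CPM, and Eif4g3 at 53.4 and 55.0 CPM against 71.2 and 71.6 CPM (0.40, SE 0.18, edgeR adjusted p = 0.248). The 3 eIF4G genes therefore pointed in different directions, without a call for any of them.

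The helicase genes Eif4a1 and Eif4a2 were at 108 and 101 CPM against 98.8 and 90.6 CPM, and at 208 and 214 CPM against 166 and 201 CPM. Eif4a3, a helicase of the exon junction complex, was at 280 and 243 CPM against 254 and 231 CPM. The cap-binding gene Eif4e overlapped between the groups, at 65.3 and 63.5 CPM against 64.1 and 76.5 CPM. Its relative Eif4e2, known for repressing capped messenger RNAs, was at 145 and 183 CPM against 202 and 201 CPM (0.30, SE 0.16, edgeR adjusted p = 0.326). Eif4e3 was at 36.2 and 25.7 CPM against 25.5 and 28.9 CPM, and Eif4e1b had 2, 0, 0 and 0 counts. The helicase cofactor Eif4h was at 392.3 and 442 CPM against 478 and 493 CPM (0.22, SE 0.13, edgeR adjusted p = 0.389), and the cofactor Eif4b overlapped between the groups at 340 and 390 CPM against 354 and 329 CPM.

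Among the inhibitors of eIF4E, 3 of 4 were tested and none was called. Eif4ebp2, a 4E-binding protein, was the most abundant of the 4E-binding protein genes per length, at 16.9 RPKM with the empty vector and 12.3 RPKM with the Hic1 vector. It was at 99.8 and 95.2 CPM against 76.6 and 66.2 CPM, with no overlap (log2 fold change -0.45, SE 0.17, edgeR adjusted p = 0.171). Eif4ebp1 was at 23.8 and 19.2 CPM against 20.6 and 20.2 CPM, and Eif4ebp3 had 0, 0, 2 and 2 counts. Eif4enif1, which carries eIF4E into the nucleus, overlapped between the groups at 51.0 and 40.5 CPM against 43.1 and 61.0 CPM.

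Eif6 keeps the large ribosomal subunit from joining too early and also acts in its assembly. Eif6 was at 98.5 and 121 CPM with the empty vector and 161 and 167 CPM with the Hic1 vector, with no overlap and no call (log2 fold change 0.57, SE 0.16, edgeR adjusted p = 0.0856). Eif5a, the hypusine-carrying factor that helps stalled ribosomes, was at 483 and 470 CPM against 589 and 529 CPM (0.23, SE 0.13, edgeR adjusted p = 0.353). Its paralog Eif5a2 was at 14.8 and 13.5 CPM against 8.59 and 7.86 CPM (-0.76, SE 0.34, edgeR adjusted p = 0.233). Per length, Eif5a stood at 201 and 235 RPKM, in the order empty vector and Hic1 vector, far above Eif5a2 at 2.81 and 1.64 RPKM. The paralogs pointed in opposite directions, and the difference between them was not tested.

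All 7 tested genes of the eEF1 and eEF2 groups had a log2 fold change above 0, beside 50.9% of all tested genes. Their median was 0.20, and none passed the test. They include Eef1e1 of the multi-tRNA synthetase complex and the methyltransferase gene Eef2kmt. The 4 tested genes for methyltransferases of eEF1A, given below as a separate group, had 1 above 0. Without Hic1 vector replicate 2, Eef1e1 was at -0.032. Eef2, the translocase, was at 4094 and 4362 CPM with the empty vector and 5290 and 5332 CPM with the Hic1 vector (log2 fold change 0.33, SE 0.10, edgeR adjusted p = 0.12). Eef1a1, the tRNA carrier, was at 3966 and 4133 CPM against 4860 and 4863 CPM (0.26, SE 0.10, edgeR adjusted p = 0.196). In both genes the libraries of a group lay close together and the groups did not overlap. Eef1a1 reads can be shared with 13 other genes that hold a near-identical stretch, but these had 2206 counts in all against 110078 for Eef1a1. The other carrier gene, Eef1a2, known from muscle and nerve, had 0, 0, 0 and 3 counts.

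The exchange factor genes, which recharge eEF1A with GTP, followed with smaller values. Eef1b2 was at 626 and 611 CPM against 738 and 641 CPM (0.16, SE 0.13, edgeR adjusted p = 0.54). Eef1d was at 185 and 190 CPM against 216 and 210 CPM (0.19, SE 0.14, edgeR adjusted p = 0.505). Eef1g was at 210 and 242 CPM against 235 and 262 CPM (0.14, SE 0.15, edgeR adjusted p = 0.662), and its groups overlapped. Eef1e1, which belongs to the multi-tRNA synthetase complex, overlapped between the groups at 29.6 and 26.7 CPM against 27.5 and 37.1 CPM. Eef2kmt, a methyltransferase that acts on eEF2, was at 24.3 and 23.2 CPM against 33.1 and 28.6 CPM (0.37, SE 0.24, edgeR adjusted p = 0.437). Eef2k, the kinase that shuts eEF2 off, was hardly detected, with 3, 4, 6 and 23 counts.

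Of the 5 genes for methyltransferases of eEF1A, 4 were tested, none was called and 1 was above 0. Their median log2 fold change was -0.24, from low levels. Eef1akmt1 and Eef1akmt2 were at 31.8 and 45.2 CPM against 35.2 and 38.3 CPM, and at 30.3 and 32.2 CPM against 34.1 and 34.0 CPM. Eef1aknmt was at 7.04 and 13.2 CPM against 7.46 and 6.84 CPM, and Eef1akmt4 at 1.94 and 7.74 CPM against 4.08 and 3.08 CPM. In Eef1aknmt and Eef1akmt4 the empty vector replicates differed more from each other than the Hic1 vector replicates did. Eef1akmt3 had 0, 0, 0 and 3 counts. The remaining untested genes were Eif2c5, an argonaute-family gene by its older name, with no count in any library, and the eIF4A3-like genes Eif4a3l1 and Eif4a3l2, with at most 1 and 5 counts in a library. At these depths, 3 counts correspond to 0.728 and 0.749 CPM with the empty vector and to 0.422 and 0.342 CPM with the Hic1 vector, so a change below these levels was not detectable. The filter before the test asked for more (minimum count 10). Eef2k and Eif3j2 had more than 3 counts in some libraries and were still not tested.

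**Figure D3:**
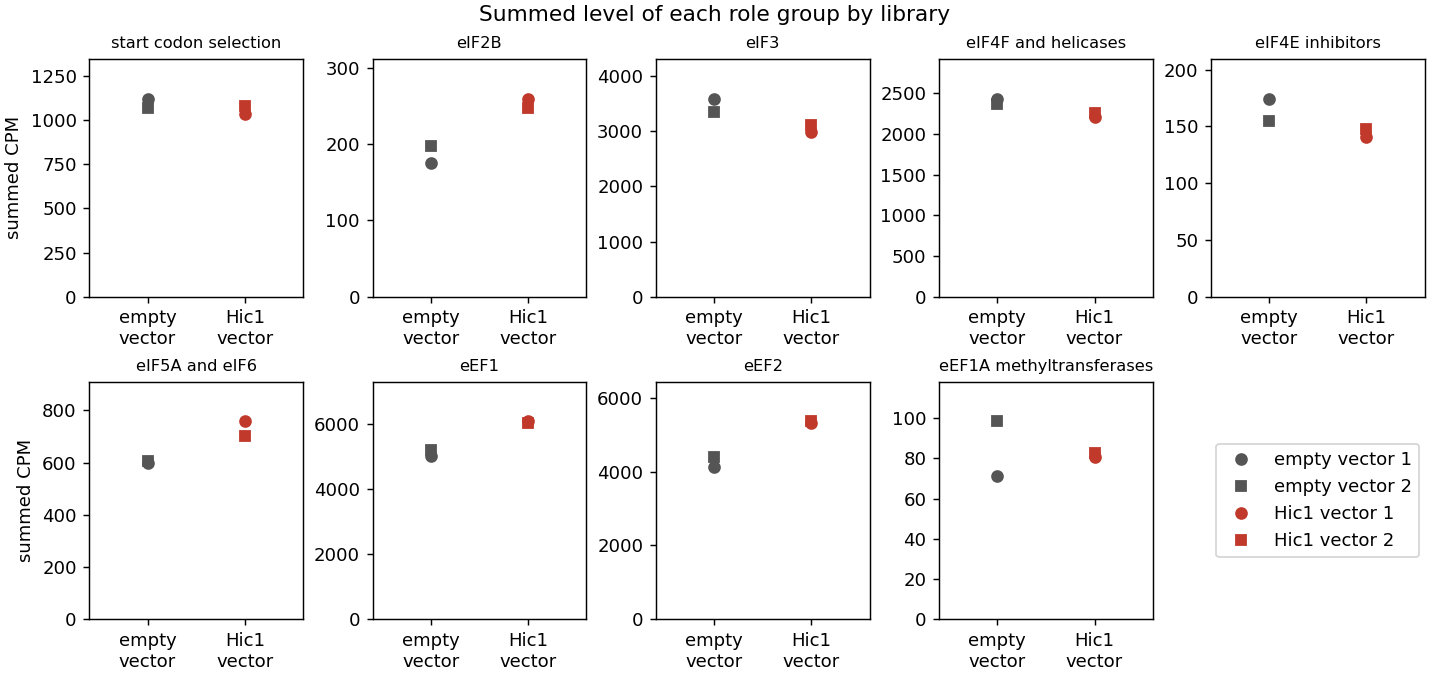
Summed TMM-scaled CPM of the genes in each of 9 role groups, with 1 point per library (grey empty vector, red Hic1 vector, circle replicate 1, square replicate 2) and each axis starting at 0. The sums of eIF2B, eIF5A with eIF6, eEF1 and eEF2 lie higher in both Hic1 vector libraries, those of eIF3, eIF4F and the eIF4E inhibitors lie lower, and the 2 remaining sums overlap.

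Summed levels by role describe how each group as a whole stood in the libraries. The eEF1 genes summed to 5017 and 5203 CPM with the empty vector and 6078 and 6014 CPM with the Hic1 vector, and the eEF2 genes to 4119 and 4386 CPM against 5324 and 5363 CPM. The eIF3 genes summed to 3594 and 3347 CPM against 2986 and 3109 CPM, and the eIF4F group to 2435 and 2373 CPM against 2211 and 2256 CPM. Both elongation sums were higher, and both of these initiation sums lower, in each Hic1 vector library. Each elongation sum lay mostly in 1 gene, and neither gene was called. Eef1a1 made up 3966 and 4133 CPM of the eEF1 sum with the empty vector and 4860 and 4863 CPM with the Hic1 vector. Eef2 made up 4094 and 4362 CPM of the eEF2 sum, against 5290 and 5332 CPM. Elongation sums without these genes were not computed. Neither initiation sum separated the groups without its gene of lowest p: eIF3 without Eif3f is given above, and the eIF4F group without Eif4g2 was at 1735 and 1827 CPM against 1818 and 1822 CPM. All 65 genes together made up 17305 and 17435 CPM against 18877 and 19002 CPM, and these sums carry no test. As a share of all counts, with no TMM scaling, they were 1.77% in both empty vector libraries (exact 95% intervals 1.76 to 1.79% and 1.76 to 1.78%). They were 1.79% (1.78 to 1.80%) in Hic1 vector replicate 1 and 1.89% (1.88 to 1.90%) in replicate 2, so the gap depended on the scaling. These intervals cover counting error only and not the spread between libraries. Per length, Eef1a1 stood highest at 1624 RPKM with the empty vector and 1950 RPKM with the Hic1 vector. Eef2 came next at 1272 and 1598 RPKM, followed by Eif3h, Eef1b2 and Eif3f in the empty vector group, where Eif3f stood at 233 RPKM. With the Hic1 vector Eif3f was at 65.9 RPKM.

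Transcripts of many of these genes are known to begin with a pyrimidine tract, the sequence by which mTOR signalling selects messenger RNAs. To show the letters at annotated starts, 30 bases around the RefSeq start (GRCm38.p6) are printed for the called gene and for the most abundant elongation factors. Of the 9 other eIF3 genes with a window, the 2 with a tract are printed too, and 7 held no tract. Eif3e, Eif3h, Eif3i and Eif3j2 had no window and could not be scored. Base 16 is the annotated start, and capitals mark, from the C nearest to it, a C followed by at least 4 pyrimidines that begins within 5 bases of it.
Eif3f: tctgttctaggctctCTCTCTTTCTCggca
Eif3l: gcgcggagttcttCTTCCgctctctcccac
Eif3b: ctagcggcgcgcggtgaCTTCTgggagtcg
Eef1a1: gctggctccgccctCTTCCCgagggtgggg
Eef2: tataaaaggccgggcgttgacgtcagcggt
They lie at chr7:108934400-108934429 (plus strand), chr15:79075208-79075237 (plus), chr5:140419290-140419319 (plus), chr9:78481710-78481739 (minus) and chr10:81176616-81176645 (plus), in this order. The marked tract of Eif3f had 11 bases from the annotated start on and was part of a run of 15 pyrimidines that began 4 bases before it. No match was found for Eef2 at its annotated start. Only tracts within 5 bases of an annotated start were scored, so a tract at another start of Eef2, Eef1a1 or any other gene would have been missed. Where the transcripts begin was not measured, so a marked tract need not be the start of a messenger RNA. Of 62 windows that matched 48 of the genes, 12 held such a tract (19.4%), against 18.3% of all 32851 windows. The genes with and without a tract are not compared here.

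The fold changes of these genes went with the GC content of their transcripts. Across the 56 tested genes Pearson's r was 0.34, and across 11667 tested genes with a known sequence it was 0.24. Genes are not independent replicates, and the points share the same 4 libraries. The 33 translation factor genes above the median GC content of 49.4% had a median log2 fold change of 0.15, and the 23 at or below it had 0.029. With the GC trend removed from each library, r was 0.0045, these medians were 0.067 and 0.18, and 37 of 56 genes (66.1%) were above 0, beside 54.1% of all genes. Eif3f stayed called at -1.78 (edgeR adjusted p = 0.0155). Eef2 went from 0.33 to 0.13, Eif6 from 0.57 to 0.37 and Eif4g2 from -0.59 to -0.41, while Eef1a1 went from 0.26 to 0.37. All 5 tested eEF1 genes and both tested eEF2 genes remained above 0, with medians of 0.28 and 0.18, although Eef1d went from 0.19 to 0.0037. The median of the start codon group went from 0.069 to 0.21 and that of eIF5A and eIF6 from 0.23 to 0.072.

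**Figure D4:**
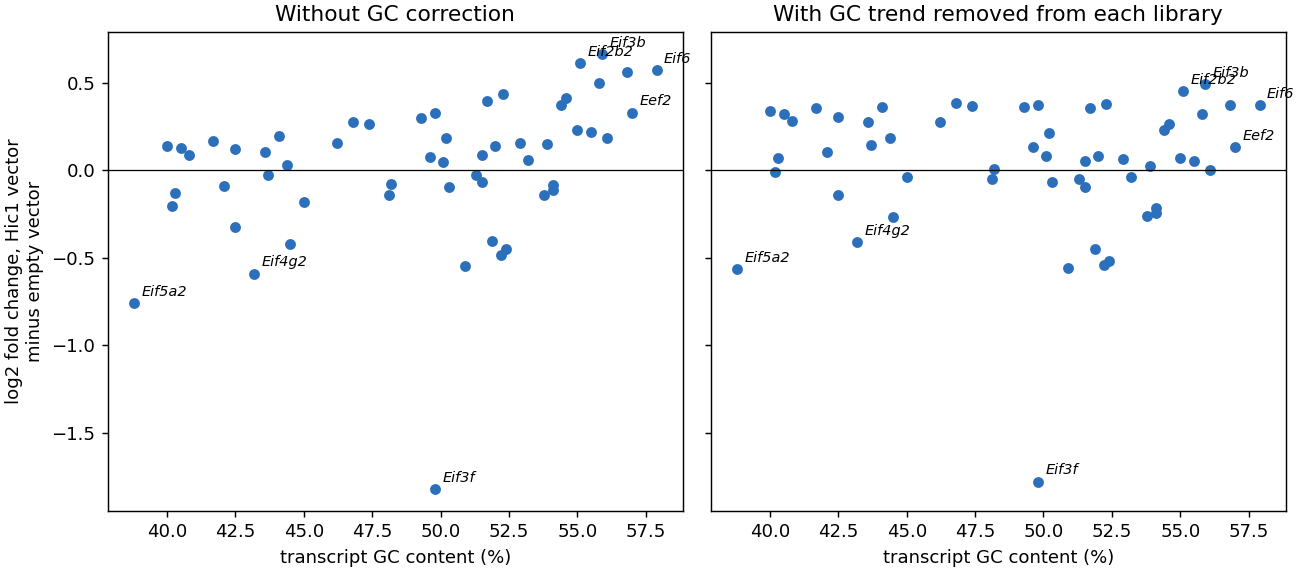
Log2 fold change (Hic1 vector minus empty vector) of the 56 tested translation factor genes against transcript GC content in percent, without a GC correction (left) and with the GC trend removed from each library (right); each point is a gene. The slope on the left (r = 0.34) is gone on the right (r = 0.0045), and Eif3f stays lowest in both, at -1.82 and -1.78.

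Beyond the factors themselves, a list of 42 other genes of translation and its control was examined, with the eIF2 kinases and phosphatases, the mTOR pathway, poly(A)-binding proteins and termination factors. Of its 41 tested genes, 2 were called higher and 0 lower, 23 were above 0, and the median log2 fold change was 0.10. Called were thus 4.88% of the list, beside 1.82% of all tested genes, and above 0 were 56.1%, beside 50.9%. Mknk2, a kinase that phosphorylates eIF4E, was at 90.1 and 125 CPM with the empty vector and 195 and 251 CPM with the Hic1 vector (log2 fold change 1.05, SE 0.19, edgeR adjusted p = 0.0278). Gtpbp2, which helps rescue stalled ribosomes, was at 35.9 and 50.5 CPM against 88.6 and 76.3 CPM (0.93, SE 0.21, edgeR adjusted p = 0.0478). Both genes rose, but neither call held with the GC trend alone removed (0.86, edgeR adjusted p = 0.0604, and 0.75, edgeR adjusted p = 0.102) or without empty vector replicate 1 (0.84, edgeR adjusted p = 0.186, and 0.71, edgeR adjusted p = 0.312). The call of Gtpbp2 was also lost, at log2 fold changes of 0.82 to 0.94, with DESeq2 size factors (edgeR adjusted p = 0.0526), by limma voom (adjusted p = 0.0525), with the length trend removed (edgeR adjusted p = 0.0588) and without Hic1 vector replicate 1 (edgeR adjusted p = 0.0928). Larp1, which binds pyrimidine-tract messenger RNAs, was at 12.1 and 19.5 CPM against 34.5 and 34.1 CPM and was not called (1.10, SE 0.28, edgeR adjusted p = 0.0667). Pabpc1, the main cytosolic poly(A)-binding protein, was at 1064 and 743 CPM against 542 and 624 CPM and was not called (-0.63, SE 0.17, edgeR adjusted p = 0.082).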

How the data were processed

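Messenger RNA was measured in 4 libraries, 2 with the empty vector and 2 with the Hic1 vector, grouped by the sample labels. The deposited table gives whole-number read counts per gene and library. The submitters' processing notes list the genome mm10 and the tools STAR 2.5.2b, Trimmomatic 0.38, DESeq2 1.3.2 and featureCounts 1.5.3 without their roles. The annotation release and strand setting of the counting were not stated there. A second deposited table, of normalized values, was not used.

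Genes were kept by filterByExpr (minimum count 10, minimum total 15), scaled by TMM and tested by group with the robust quasi-likelihood F test of edgeR 4.0.16 in R 4.3.3, with a prior count of 2. P-values were adjusted by Benjamini-Hochberg over all 11676 tested genes and called below 0.05. The SE is the unshrunk log2 coefficient divided by the root of F. CPM uses TMM-scaled library sizes. RPKM is CPM per kilobase of exon union in GENCODE M21, where 99.53% of the table's genes were found. Near-identical stretches (at least 100 bases, 95% identity) were sought with blastn 2.17.0. Promoter windows are RefSeq's, 250 bases before to 50 after the start, for the 48 genes whose symbol matched.

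The members and lists were chosen with earlier results of these data known. Statistics are given for called genes, up to 4 genes of lowest p per role group, paralogs, and called or lowest-p genes of the other translation list. The neighbours, motifs, shared stretches and the split by GC content were chosen after the data were seen, as were other genes named with levels. Alternatives were other scalings, filters, tests (DESeq2 1.42.0, limma 3.58.1), thinning, a replicate block, GC and length corrections (loess, span 0.3) and omission of each library.

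Counts of replicates differed beyond sampling noise (chi-square per degree of freedom 9.99 between empty vector libraries and 19.4 between Hic1 vector libraries), and the biological coefficient of variation over all tested genes was 0.195. Tested on simulated data of the same depths (11676 genes), the test recovered 45 of 99 genes changed 2-fold and 85 of 94 changed 4-fold, with 19 false calls and with 5 calls when nothing was changed. Reads amplified by PCR and not tagged by molecule are not independent, so floors and the exact intervals of shares cover counting error only.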

Additional observations from a re-analysis of the deposited data

How the results depend on the processing

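With 2 libraries per group at 3941364 to 8839317 counts, the test can miss many 2-fold changes, and a value that missed the threshold does not show that the groups were alike. Eif3f was called in 15 of 16 alternatives (log2 fold change -2.24 to -1.49) and lost its call without empty vector replicate 1, where 8 genes in all were called. All tested genes called numbered 213 and ranged from 8 to 318 when each library was left out in turn, 155 without Hic1 vector replicate 2 and 318 without empty vector replicate 2. The count was 321 with library sizes as the only scaling (2.75%, with 70 of them higher, against 84 of 213 with TMM). It was 819 of 31962 genes without a filter on low counts (2.56%) and 418 of 10544 by DESeq2 (3.96%). With the GC trend removed it was 137 (1.17%), and with the length trend removed 121 (1.04%). In these settings 56 translation factor genes were tested, or 64 without a filter. Translation factor genes called, 1 with the settings of the report, were 2 (both lower) with library sizes as the only scaling, 5 (3 higher, 2 lower) without a filter, 2 (both lower) by DESeq2, and 0 to 3 with a library left out, all of them lower. The other translation genes called, 2 in the report, were 1 with DESeq2 size factors, 5 without a filter, 4 by DESeq2, 1 by limma voom, 0 with the GC trend removed, 1 with the length trend removed, and 0 to 4 with a library left out. The median log2 fold change of the translation factor genes was 0.024 with library sizes as the only scaling (all tested genes -0.063), 0.18 without a filter (64 genes; all tested genes 0.048), and 0.064 to 0.11 with a library left out. Where a library was left out, the lone sample of its group is assumed to vary like the other group. Apart from what is stated, the cause was not tested.

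The groups share replicate numbers, but the labels do not say that a number marks an animal or a day. The Xist and Eif2s3y counts given above differed between the numbers in the same direction in both groups. The main test held no term for this difference. With the replicate number as a block (replicate block), 794 genes were called, 6.80% of all tested genes. Among them were 5 of the other translation genes and 5 of the 56 translation factor genes, 3 higher and 2 lower. These were Eif2b2 (0.61, edgeR adjusted p = 0.0483), Eif6 (0.58, 0.0324), Eef2 (0.33, 0.0393), Eif4g2 (-0.58, 0.0257) and Eif3f (-1.86, 0.000165). With the GC correction and the replicate block together, 650 genes were called (5.57%). Of the 56 translation factor genes, 3 were among them (1 higher, 2 lower): Eef1a1 (0.37, edgeR adjusted p = 0.035), Eif1 (-0.53, 0.0428) and Eif3f. Eif2b2 (0.46, edgeR adjusted p = 0.115), Eif6 (0.38, 0.121), Eef2 (0.13, 0.443) and Eif4g2 (-0.40, 0.0801) were not called there. Of the other translation genes 3 were, among them Mknk2 (0.86, edgeR adjusted p = 0.00164) and Gtpbp2 (0.76, 0.0291). Deviations of same-numbered libraries from their group means correlated at 0.24 over all tested genes and 0.18 without genes of the X and Y chromosomes.

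Of the 56 tested genes, 37 kept the sign of their log2 fold change in all 16 alternatives, and the 19 that did not were all uncalled. With library sizes as the only scaling, the sign turned for Eif1ad (-0.026), Eif2b5 (-0.021) and Eif3m (-0.047). Thinning turned it for Eif2b5 (-0.18), and the absence of a filter for Eif3h (0.036) and Eif5b (0.038). The length correction turned Eef1akmt1 (0.0061), Eif1ad (-0.023), Eif2b5 (-0.013), Eif3m (-0.043) and Eif5b (0.099). The GC correction turned Eif2b5 (-0.037), Eif2s2 (0.10), Eif3e (0.068), Eif4ebp1 (0.0088) and Eif5b (0.14). With the GC correction and the replicate block together these were -0.058, 0.097, 0.064, 0.016 and 0.14. With a library left out, the log2 fold change ran from -0.29 to 0.19 for Eef1akmt1, -1.1 to 0.78 for Eef1akmt4, -0.86 to 0.0082 for Eef1aknmt, -0.032 to 0.40 for Eef1e1, -0.093 to 0.19 for Eif1ad and -0.30 to 0.022 for Eif1b. It ran from -0.039 to 0.66 for Eif2b3, -0.25 to 0.33 for Eif2b5, -0.065 to 0.25 for Eif2s1, -0.21 to 0.038 for Eif2s2, -0.17 to 0.11 for Eif3h and -0.75 to 0.26 for Eif3j1. For the others it ran from -0.0014 to 0.068 for Eif3m, -0.0019 to 0.25 for Eif4e, -0.42 to 0.083 for Eif4e3, -0.23 to 0.083 for Eif4ebp1, -0.080 to 0.42 for Eif4enif1 and -0.091 to 0.046 for Eif5b.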
